A study of Sus scrofa with 75 samples.

Results

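MicroRNA levels in peripheral blood mononuclear cells (PBMCs) of piglets exposed to topsoil were compared with those of control piglets at 11 days of age. The 13 libraries are the 5 topsoil and 8 control columns of day 11 in the miRNA count table, out of 39 miRNA libraries and 75 samples in all. Treatment and day were taken from the column names, because the sample characteristics gave another treatment or another age for 11 of the 13 libraries. The pigs were of a synthetic Large White line, and each library came from a different pig. The groups differed in rearing. Crates of the conventional kind housed the 8 controls. In the other 5 pigs, soil exposure began at an age of 4 days and ended with weaning (day 20), with fresh topsoil each day. At day 11 the topsoil pigs were thus 7 days into exposure. PBMCs were separated from blood on a density gradient, and small RNA was sequenced. The comparison asks which miRNAs differed early in the exposure, and a further contrast asks whether the day 11 difference was unlike that at days 20 and 56.

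A miRNA is a short RNA that guides an Argonaute protein to messenger RNAs, mostly through pairing of its seed, the bases near its 5′ end, and it lowers their translation and stability. In blood, miR-486, miR-451 and miR-144 are made in large amounts by maturing red blood cells, miR-150 and miR-342 mark lymphocytes, miR-142 is found in all leukocytes, and miR-223 is high in granulocytes and monocytes. Other miRNAs, such as miR-21, miR-146a and miR-155, are induced when immune cells meet microbial products. All names are those of the pig, written without the species prefix.

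The 13 libraries held 6980351 to 13494765 counts. Topsoil libraries held 12376957, 13494765, 11240511, 11336826 and 9099478 counts in replicates 1 to 5, and control libraries 6980351 to 12550375 with a median of 11143954. The ranges overlapped, with control replicate 4 the smallest library and topsoil replicate 2 the largest. miR-486 took 95.2, 88.9, 89.8, 85.4 and 76.1% of the counts of topsoil replicates 1 to 5. In control libraries its share ran from 69.1% in replicate 4 (95% Wilson interval 69.07% to 69.14%, counting error only) through a median of 91.3% to 95.5%. Topsoil replicate 5 and control replicate 4 had the lowest shares of their groups, and the other 11 libraries of both treatments lay between 84.6% and 95.5%. The remaining counts, which carry all other miRNAs, numbered 389906 to 2174817 per library.

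The libraries also fell apart in how many miRNAs had at least 1 read. Control replicates 4, 5 and 7 had 226, 212 and 219 such miRNAs, and topsoil replicates 4 and 5 had 222 and 221. The other 5 control and 3 topsoil libraries had 147 to 173. The gap between 173 and 212 left both treatments on both sides. The 5 libraries had 41 to 67 miRNAs with 1 to 9 counts, against 8 to 23 in the other 8, and they also had the 5 largest upper-quartile scaling factors (0.702 to 2.46) and the 5 largest shares of miR-142 and miR-223 (0.0961% to 0.187%). The labels give no batch that would separate them. None of the 10 library measures passed an adjusted p of 0.10 in a two-sided exact permutation test of topsoil against control over 1287 splits (adjusted p 0.937 for each). Topsoil minus control was -1.49 percentage points for the share of miR-486 (exact p 0.754) and 6.38 for the number of miRNAs with a read (exact p 0.647).

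**Figure D1:**
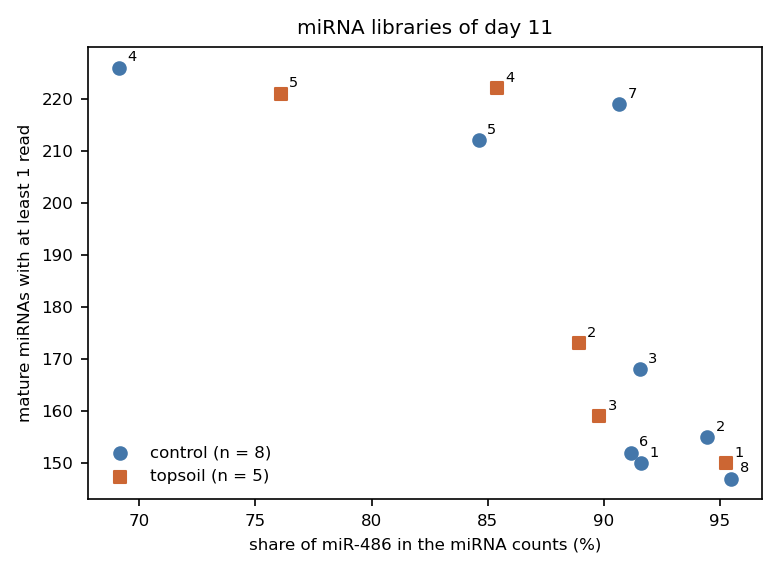
Share of all counts taken by miR-486 against the number of miRNAs with at least 1 read in the 13 day 11 libraries, with the replicate number beside each point. Control replicates 4, 5 and 7 and topsoil replicates 4 and 5 lie at 212 to 226 miRNAs, and the other 8 libraries at 147 to 173.

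The marker miRNAs were checked against the label of the cells. The erythroid list (miR-486, miR-451 and miR-144) held a median of 91.4% of counts in control and 88.9% in topsoil libraries, nearly all of it miR-486. The lymphocyte list (miR-150 and miR-342) held 0.144% and 0.160%, and the leukocyte and myeloid list (both arms of miR-142, and miR-223) 0.0493% and 0.0520%. Markers of mononuclear cells were thus read in every library, beneath miR-486, which took most of the counts. The other listed erythroid miRNAs were far below it. Over the 13 libraries miR-486 had 125617000 counts, miR-451 51017 and miR-144 1436, while miR-150 of the lymphocyte list had 219435. Of 12 vascular and platelet names, 7 were at 0 in all 13 libraries, both arms of miR-145 and of miR-214 among them. Of 23 tissue-restricted names in the table, 11 were at 0 in all 8 control libraries and 14 in all 5 topsoil libraries. Those counts cover unlike numbers of libraries and cannot be set against each other. Per count other than miR-486, the lymphocyte list held 0.716% to 3.38% in control and 0.742% to 2.21% in topsoil libraries (exact p 0.408, adjusted p 0.922 over 5 lists). In bulk RNA, fewer cells of a type and less RNA per cell cannot be told apart.

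Of 457 mature names in the table, 317 had a read in any of the 39 libraries, and 209 passed the filter and were tested. No miRNA passed an adjusted p of 0.10 in edgeR: 0 were called higher and 0 lower in topsoil pigs (0% of the 209 in either direction), and the smallest adjusted p was 0.591. At an unadjusted p under 0.05 there were 6 (2.87% of those tested), and 9 with the number of miRNAs read in each library as a covariate, an alternative chosen after seeing the data in which 0 were called. DESeq2 called 0, with 7 at that unadjusted p, and limma voom called 0, with 5. With 1 library left out at a time the number at that unadjusted p ran from 6 to 11, with 10 without control replicate 5 and 11 without topsoil replicate 2 or without topsoil replicate 4. No miRNA had all 5 topsoil libraries above all 8 control libraries, and none had them all below (0% each). Fitted levels in topsoil pigs were higher for 116 miRNAs and lower for 93, with a median log2 difference (topsoil minus control) of 0.045 and a median size of 0.44. Those counts depended on the scaling: 105 higher and 104 lower with TMM or median-of-ratios scaling, 107 and 102 with total counts, and 86 and 123 when library sizes were taken without miR-486. The median was 0.0077, 0.0073, 0.035 and -0.10 in that order, and with 1 library left out at a time it ran from -0.016 without topsoil replicate 3 to 0.14 without topsoil replicate 1. With RNA quality, sex, parity and litter size as covariates it was -0.19.

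How small a difference could have been seen depended on the counts. Among the 105 miRNAs averaging at least 100 counts, the median standard error of the log2 difference was 0.38. The 95% interval lay wholly within 1 of 0 on the log2 scale for 44 of these 105, and for no other miRNA tested. Some names have the same count in every library and so are 1 measurement: miR-339, miR-339-5p and miR-4334-3p, miR-9, miR-9-1 and miR-9-2 as another set, and miR-199a-3p with miR-199b-3p. Most of these were named only after the values had been seen. Counting each set once leaves 204 of the 209 tested, 101 of the 105 and 42 of the 44. Among the 44 were let-7a, let-7i-5p, miR-21-5p, miR-181a, miR-191, miR-150 and miR-92a. Below a mean of 100 counts every interval reached past 1 in at least 1 direction.

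**Figure D2:**
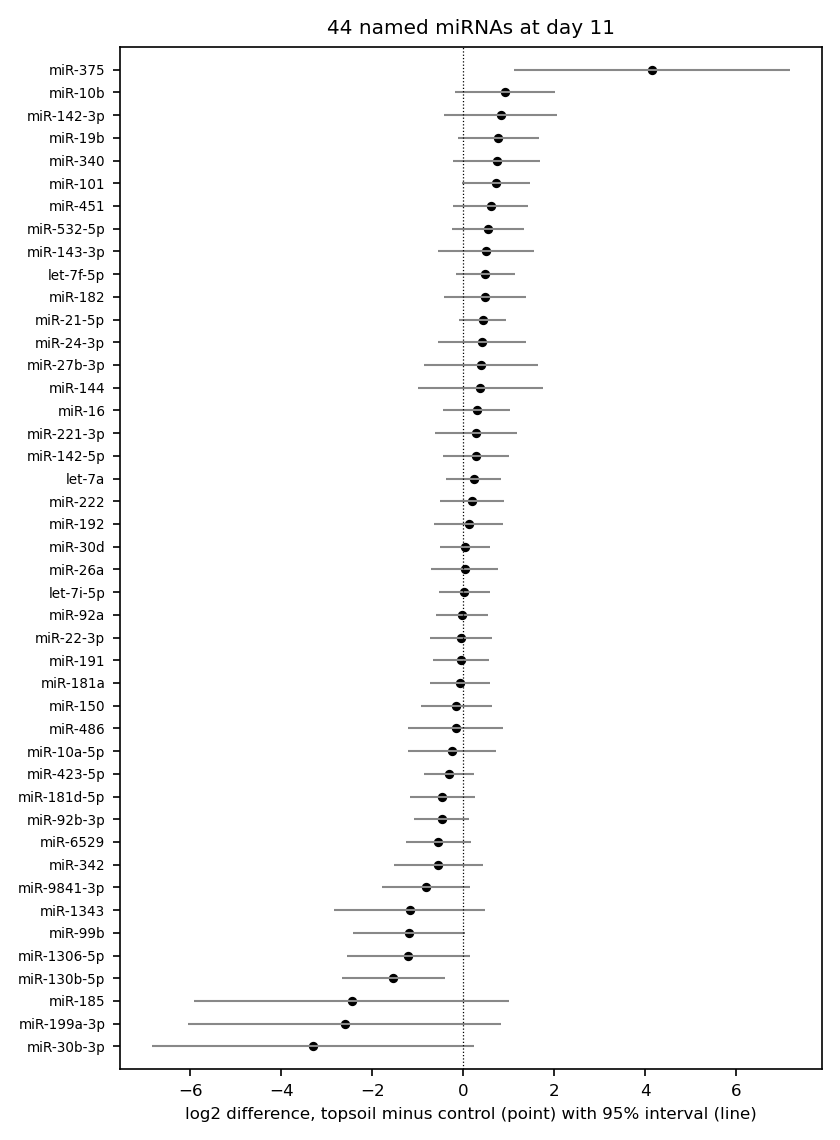
Fitted log2 difference between 5 topsoil and 8 control libraries at day 11 (points) with its 95% interval (lines) for 44 miRNAs named by rule and with reads in both treatments. The intervals of miR-375 and miR-130b-5p lie to either side of 0 and the others cross it.

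Levels are given in CPM, reads scaled to a common library size by the upper quartile, and each difference is the log2 difference fitted by edgeR, topsoil minus control. Among miRNAs averaging at least 10 counts, the 8 with the smallest unadjusted p in each direction are described. Each is given with all its topsoil values and with the range and median of its control values. Mature sequences and positions are those of RefSeq on the pig genome Sscrofa11.1, written 5′ to 3′ with the seed (bases 2 to 8) in capitals, and shown so that miRNAs sharing a seed can be told from those that differ. For each of these 16 except miR-130b-5p, and for the most abundant miRNAs and the erythroid list, the adjusted p was 0.994. RNA quality, sex, parity and litter size entered together in 1 alternative, called the 4 covariates. The 13 libraries leave little room for 4 covariates, and the differences from that fit are given without intervals. What a change of sign under it reflects was not tested.

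Among the red blood cell miRNAs, miR-451, which Argonaute 2 matures without Dicer, was read at 414, 481, 503, 1571 and 422 CPM in topsoil replicates 1 to 5, and from 192 through a median of 336 to 822 CPM in the 8 control libraries. All 5 topsoil libraries lay above the control median, and topsoil replicate 4 lay above every control library, while the other 4 lay inside the control range. The difference was 0.60 (95% interval -0.22 to 1.42), with an unadjusted p of 0.144, and it was 0.026 without topsoil replicate 4 and -0.18 with the 4 covariates. miR-144, transcribed together with miR-451, was read at 19.9, 8.29, 9.07, 34.6 and 13.97 CPM in the topsoil libraries, against a control range of 0.222 to 32.6 CPM with a median of 11.2 CPM. Control replicate 1 was nearly without it, topsoil replicate 4 was the highest library, and the groups overlapped. Its difference was 0.38 (95% interval -0.996 to 1.75), and that of miR-486, which lies in an intron of the erythroid ankyrin gene ANK1, was -0.17 (95% interval -1.21 to 0.87). With the 4 covariates these turned to -0.85 and 0.19, and with 1 library left out to -0.047 (without topsoil replicate 4) and 0.063 (without topsoil replicate 5). At the later days the differences of miR-451 were -1.26 at day 20 and 0.25 at day 56, and those of miR-486 0.74 at day 20 and -1.14 at day 56. miR-451 and miR-144 lie beside each other at chr12:45088838-45088859 and chr12:45088968-45088986, and miR-486 at chr17:10758868-10758889. Their seeds all differ.
miR-451: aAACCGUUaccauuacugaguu
miR-144: uACAGUAUagaugauguac
miR-486: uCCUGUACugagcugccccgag

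Lymphocyte miRNAs overlapped widely between the treatments. miR-150, which restrains MYB in B and T cell development, was read at 3302, 2575, 4167, 1212 and 1750.4 CPM in topsoil replicates 1 to 5, and from 1129 through a median of 2542 to 5551 CPM in the 8 control libraries. Topsoil replicates 4 and 5 and control replicates 5 and 7 were low, and topsoil replicate 3 and control replicates 1 and 3 high. The difference was -0.15 (95% interval -0.93 to 0.63) for miR-150 and -0.55 (95% interval -1.53 to 0.42) for miR-342, the other listed lymphocyte miRNA. With the 4 covariates they were 0.17 and -0.029. That of miR-150 was 0.049 without control replicate 3, and that of miR-342 was -0.32 without topsoil replicate 4 and -0.88 without topsoil replicate 2. Of the miR-181 family, which tunes T cell receptor signalling, 1 of the 4 tested members had a higher and 3 a lower fitted level in topsoil pigs, with a median log2 difference of -0.22. Without miR-486 in the library sizes all 4 were lower. miR-181a had the highest level of that family, at 35834, 33234, 53062, 24161 and 33442 CPM in the topsoil libraries, against a control range of 19786 to 77451 CPM with a median of 33565 CPM. Control replicate 1 stood far above the other libraries, and the remaining values overlapped.

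Leukocyte miR-142 was read on both arms. The 5p arm was read at 1064, 826, 1416, 1681 and 1239 CPM in topsoil replicates 1 to 5, and from 200 through a median of 1066 to 1900.3 CPM in the 8 control libraries. Control replicate 1 was the lowest library by far and control replicate 5 the highest, with all topsoil libraries between them. The 3p arm had fewer counts and a difference of 0.82 (95% interval -0.43 to 2.07), against 0.27 (95% interval -0.46 to 1.002) for the 5p arm. With the 4 covariates these were 0.22 and -0.51, and the 5p difference was 0.12 without control replicate 1. With miR-223 included, 2 of the 3 tested members had a higher and 1 a lower fitted level in topsoil pigs, with a median log2 difference of 0.27, or 0.081 without miR-486 in the library sizes.

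Of the miRNAs induced in inflammation (miR-146a, miR-146b, miR-155, miR-21, miR-132 and miR-212), 5 of the 7 tested members had a higher and 2 a lower fitted level in topsoil pigs, with a median log2 difference of 0.43. That median was 0.28 with median-of-ratios scaling, 0.21 with total counts and 0.15 without miR-486 in the library sizes. The 0.43 is the value of miR-21-5p itself, and both arms of miR-21 are among the higher members. The sparse miR-155-5p, miR-132 and miR-212 averaged 7, 9.77 and 5 counts. In topsoil replicates 1 to 5, miR-155-5p had 1, 5, 0, 0 and 54 counts. The counts of this list lead with miR-21-5p, which was read at 1608, 1879, 1727, 1852 and 2272 CPM in topsoil replicates 1 to 5, and from 843 through a median of 1463 to 1960 CPM in the 8 control libraries. All 5 topsoil libraries lay above the control median, but control replicate 3 lay above 4 of them and topsoil replicate 5 alone lay above every control library. The difference was 0.43 (95% interval -0.089 to 0.95), with an unadjusted p of 0.0998. It ran from 0.26 to 0.54 under the alternatives that kept these groups. At the later days it was -0.42 at day 20 and 0.47 at day 56. miR-21-5p lies at chr12:36065284-36065305.
miR-21-5p: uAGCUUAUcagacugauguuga

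The miR-17-92 cluster and its paralogs promote lymphocyte proliferation. For these, 8 of the 11 tested members had a higher and 3 a lower fitted level in topsoil pigs, with a median log2 difference of 0.32. TMM, median-of-ratios and miR-486-free library sizes each gave 7 higher and 4 lower, and total counts 9 and 2. The 0.32 is the value of miR-18a, at 0 in 5 control and 3 topsoil libraries. Over the 13 libraries miR-18a, miR-17-3p, miR-20b and miR-106a, all higher, had 366, 144, 201 and 246 counts, and the other higher members 2805 to 34947. The lower miR-92a, miR-92b-3p and miR-363 had 234289, 126555 and 11654. miR-19b was read at 655, 120, 208, 772 and 618 CPM in topsoil replicates 1 to 5, and from 74.4 through a median of 223 to 457 CPM in the 8 control libraries. Topsoil replicates 1, 4 and 5 lay above every control library, whereas topsoil replicates 2 and 3 lay below the control median. The difference was 0.77 (95% interval -0.12 to 1.66), with an unadjusted p of 0.0862, and it was 0.067 with the 4 covariates. miR-92a, from the same cluster on chromosome 11, was read at 2931, 2291, 2116, 2851 and 2586 CPM in the topsoil libraries, against a control range of 1629.9 to 4005 CPM with a median of 2486 CPM. Its topsoil values lay within the control range, and the difference was -0.025 (95% interval -0.59 to 0.54), with a positive sign under total-count scaling (0.036). miR-92b-3p has the seed of miR-92a, comes from chromosome 4 (chr4:94624293-94624314), and was read at 1173, 1032, 1725, 1075 and 1129 CPM in topsoil replicates 1 to 5, and from 1043 through a median of 1499.7 to 3025 CPM in the 8 control libraries. Topsoil replicate 3 alone was above the control median among the topsoil libraries, and topsoil replicate 2 lay just below every control library. The difference was -0.47 (95% interval -1.08 to 0.14), with a value of -0.30 without control replicate 1 and 0.0098 when all 4 covariates were in the fit. The mature forms of miR-19b and miR-92a are encoded at chr11:60735289-60735311 and chrX:110113862-110113884, and at chr11:60735405-60735426 and chrX:110113725-110113746.
miR-19b: uGUGCAAAuccaugcaaaacuga
miR-92a: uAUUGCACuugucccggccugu
miR-92b-3p: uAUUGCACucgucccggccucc

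The let-7 family holds back proliferation and grows more abundant as cells mature. For it, 8 of the 10 tested members had a higher and 2 a lower fitted level in topsoil pigs, with a median log2 difference of 0.24, and 7 were higher and 3 lower with library sizes taken without miR-486. let-7f-5p was read at 31000.4, 49165, 104768, 62024 and 50118 CPM in topsoil replicates 1 to 5, and from 25791 through a median of 42511 to 59588 CPM in the 8 control libraries. Topsoil replicate 3 lay well above every control library, topsoil replicate 4 just above, and topsoil replicate 1 below the control median. The difference was 0.49 (95% interval -0.17 to 1.14), with an unadjusted p of 0.136, and it was 0.18 without topsoil replicate 3 and -0.30 with all 4 covariates. let-7a shares its seed and was read at 17687, 20769, 36933, 20791 and 18274 CPM in the topsoil libraries, against a control range of 11251 to 31085 CPM with a median of 18272 CPM. Topsoil replicate 3 was the highest library again, and the other 4 topsoil libraries lay inside the control range. let-7i-5p, a further member with that seed, had topsoil values of 11632, 10779.9, 11135, 10115 and 9800.1 CPM, a narrow span inside the control range of 4750.3 to 15806 CPM. The differences were 0.23 (95% interval -0.37 to 0.84) for let-7a and 0.023 (95% interval -0.54 to 0.59) for let-7i-5p, the latter turning to -0.060 without miR-486 in the library sizes. That of let-7a turned to -0.25 with the 4 covariates and to -0.0086 without topsoil replicate 3. let-7a and let-7f-5p are each encoded at 2 places, and on chromosome 3 they lie next to each other (chr3:43465677-43465698 and chr3:43466044-43466065).
let-7a: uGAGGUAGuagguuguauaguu
let-7f-5p: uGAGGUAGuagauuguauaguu
let-7i-5p: uGAGGUAGuaguuugugcu

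The miR-99, miR-100, miR-125 and miR-10 families are related by ancestry, and the miR-10 genes lie among the HOX genes. Here 2 of the 8 tested members had a higher and 6 a lower fitted level in topsoil pigs, with a median log2 difference of -0.35, a count that became 1 higher and 7 lower under total-count scaling. miR-99b, a repressor of mTOR, was read at 30.1, 37.8, 25.4, 4.30 and 9.29 CPM in topsoil replicates 1 to 5, and from 6.93 through a median of 31.8 to 101 CPM in the 8 control libraries. Topsoil replicate 2 alone lay above the control median, topsoil replicate 4 below every control library, and control replicates 1, 3 and 8 far above all the rest. The difference was -1.20 (95% interval -2.43 to 0.032), with an unadjusted p of 0.0558, and it ran from -1.51 to -0.051 under the alternatives that kept these groups. miR-10b was read at 129, 111, 80.6, 10.7 and 7.18 CPM in the topsoil libraries, against a control range of 18.7 to 71.7 CPM with a median of 32.5 CPM. Topsoil replicates 1, 2 and 3 lay above every control library, and topsoil replicates 4 and 5 below every one. The fitted difference of 0.92 (95% interval -0.18 to 2.02) averages over that split, was 0.55 without topsoil replicate 1, and was -0.022 with limma voom. miR-10a-5p, with the same seed, was read at 511, 584, 205, 61.1 and 121 CPM in topsoil replicates 1 to 5, and from 172 through a median of 255 to 825 CPM in the 8 control libraries. Topsoil replicates 4 and 5 were again the lowest of the 13 libraries, and the difference was -0.25 (95% interval -1.22 to 0.71). It turned to 0.42 with the 4 covariates and to 0.053 without control replicate 8, and was -0.65 without topsoil replicate 2. miR-10b lies at chr15:81951653-81951674, miR-10a-5p at chr12:24833694-24833715 and miR-99b at chr6:58332253-58332274.
miR-10a-5p: uACCCUGUagauccgaauuugu
miR-10b: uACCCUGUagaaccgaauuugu
miR-99b: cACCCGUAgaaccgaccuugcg

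Outside these families, miR-101, a repressor of the histone methyltransferase EZH2, had the smallest unadjusted p (0.0615) among miRNAs with a higher fitted level and at least 10 counts. It was read at 489, 202, 421, 363 and 325 CPM in topsoil replicates 1 to 5, and from 52.4 through a median of 214 to 361 CPM in the 8 control libraries. Topsoil replicates 1, 3 and 4 lay above every control library, topsoil replicate 2 below the control median, and control replicate 1 was the lowest of all. The difference was 0.72 (95% interval -0.037 to 1.47), and it ran from 0.24 to 0.87 under the alternatives that kept these groups. It is encoded in introns of RCL1 (chr1:217152799-217152819) and of JAK1 (chr6:147330940-147330960). miR-340 was read at 69.2, 25.3, 56.2, 68.2 and 75.6 CPM in the topsoil libraries, against a control range of 3.55 to 59.4 CPM with a median of 30.9 CPM. Topsoil replicates 1, 4 and 5 exceeded all control libraries, and topsoil replicate 2 lay below the control median. miR-532-5p, from an X-linked miRNA cluster at chrX:43705273-43705294, was read at 43.3, 41.9, 44.1, 35.98 and 34.7 CPM in topsoil replicates 1 to 5, and from 13.6 through a median of 28.8 to 39.96 CPM in the 8 control libraries. Its topsoil values were close together and all above the control median, with 3 of them above every control library. The differences were 0.73 (95% interval -0.22 to 1.69) for miR-340 and 0.55 (95% interval -0.24 to 1.34) for miR-532-5p. With the 4 covariates they were 0.085 and 0.078.
miR-101: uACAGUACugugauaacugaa
miR-532-5p: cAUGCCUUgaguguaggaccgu

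Of the miRNAs with a lower fitted level, miR-130b-5p, the lesser arm of a precursor of the miR-130 family, was read at 4.69, 7.78, 18.1, 9.02 and 9.83 CPM in topsoil replicates 1 to 5, and from 5.61 through a median of 25.5 to 75.1 CPM in the 8 control libraries. All 5 topsoil libraries lay below the control median, but control replicate 5 lay below 4 of them, and control replicate 1 stood far above every other library. The difference was -1.53 (95% interval -2.67 to -0.40), with an unadjusted p of 0.0105 and, over all 209, an edgeR adjusted p of 0.591. It was the only miRNA with a mean of at least 10 counts whose unadjusted p was under 0.05. That p was 0.0591 with total-count scaling, 0.0528 with limma voom and 0.0795 with litter size as a covariate. The differences at the later days were -0.51 at day 20 and -0.45 at day 56.

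miR-1306-5p and miR-185 come from neighbouring genes on chromosome 14, an exon of DGCR8 (chr14:51473925-51473946), whose protein helps cut miRNA precursors, and an intron of TANGO2 (chr14:51449913-51449934). miR-1306-5p was read at 3.86, 4.54, 3.78, 5.45 and 4.21 CPM in the topsoil libraries, against a control range of 4.77 to 18.01 CPM with a median of 8.996 CPM. Topsoil replicate 4 lay above control replicate 4, and the other 4 topsoil libraries lay below all controls. miR-185 was read at 0, 0, 0, 2.31 and 0.234 CPM in topsoil replicates 1 to 5, and from 0 through a median of 1.62 to 12.2 CPM in the 8 control libraries. Topsoil replicates 1, 2 and 3 and control replicates 1, 2 and 3 had no read of it, and the high values were those of control replicates 6 and 8. The differences were -1.20 (95% interval -2.56 to 0.15) for miR-1306-5p and -2.46 (95% interval -5.93 to 1.02) for miR-185. That of miR-185 ran from -5.02 (without topsoil replicate 4) to -0.87 under the alternatives that kept these groups. It was -1.67 without control replicate 8 and -4.86 with litter size as a covariate. miR-1343, in an intron of PDHX (chr2:26066344-26066365), was read at 3.59, 9.72, 6.05, 3.99 and 3.28 CPM in the topsoil libraries, against a control range of 0 to 20.8 CPM with a median of 13.4 CPM. All 5 topsoil values lay below the control median, and control replicate 6 had no read. miR-9841-3p, in an intron of the coagulation factor gene F13A1 (chr7:3835436-3835456), was read at 103, 114, 68.3, 13.8 and 44.8 CPM in topsoil replicates 1 to 5, and from 39.99 through a median of 97.9 to 239 CPM in the 8 control libraries. Topsoil replicates 1 and 2 lay above the control median and topsoil replicate 4 below every control library. miR-6529 was read at 53.5, 199, 274, 166 and 140.3 CPM in the topsoil libraries, against a control range of 146 to 309 CPM with a median of 253 CPM. Topsoil replicates 1 and 5 lay below every control library, and topsoil replicate 3 alone was above the control median. The differences were -1.17 (95% interval -2.83 to 0.49) for miR-1343, -0.82 (95% interval -1.79 to 0.14) for miR-9841-3p and -0.55 (95% interval -1.26 to 0.16) for miR-6529. With the 4 covariates that of miR-1343 was -0.031 and that of miR-9841-3p -0.44, and without topsoil replicate 1 that of miR-6529 was -0.32. The 4 of these with a RefSeq sequence have 4 different seeds.
miR-1306-5p: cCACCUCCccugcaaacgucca
miR-185: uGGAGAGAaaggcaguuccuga
miR-1343: cUCCUGGGgcccgcacucucgc
miR-9841-3p: uCUAGCAUcgagcacccgccu

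**Figure D3:**
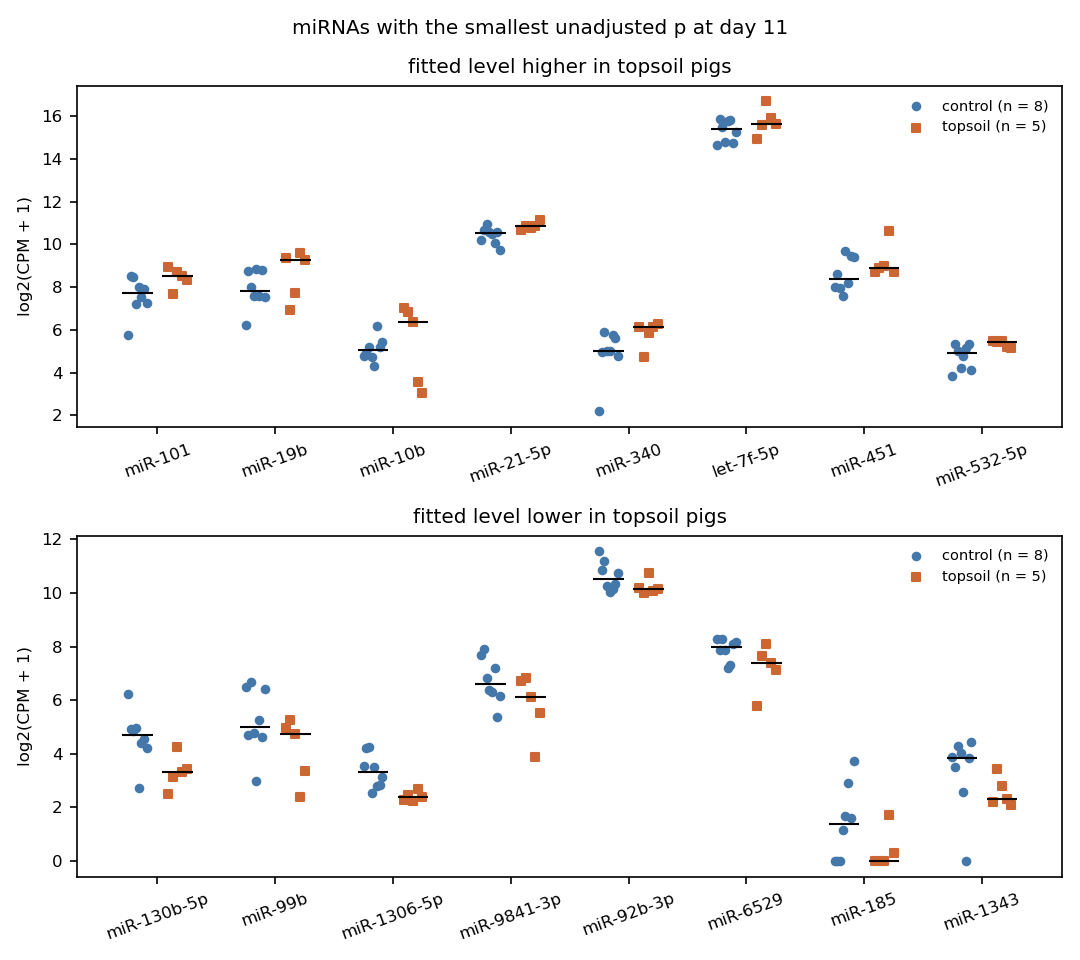
Log2(CPM + 1) of the 8 miRNAs with the smallest unadjusted p in each direction among those with a mean of at least 10 counts, in 8 control and 5 topsoil libraries of day 11. Horizontal lines are group medians, and the treatments overlap for each of the miRNAs shown.

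The other 5 miRNAs at an unadjusted p under 0.05 had a mean of fewer than 10 counts per library, and miR-664-3p and miR-184 are outside the rule for named miRNAs and were picked after their values were seen. miR-375, a miRNA of endocrine and epithelial cells, had 10, 0, 57, 3 and 12 counts in topsoil replicates 1 to 5, against 12, 3 and 2 in control replicates 4, 5 and 7 and 0 in the other 5. Of all its topsoil counts, most were in replicate 3, and the difference of 4.15 (95% interval 1.12 to 7.18) had an edgeR adjusted p of 0.591 (unadjusted 0.00934) and was 2.28 without that library. At day 20 its level ran from 0 through a median of 0.371 to 138 CPM in topsoil and from 0 to 0.646 CPM in control libraries, a difference of 7.59 at day 20 and 1.17 at day 56, and the contrast of day 11 with the later days was -0.63 (95% interval -4.01 to 2.75). miR-664-3p had 0 counts in all topsoil libraries and 45 over 4 control libraries. In counts pooled over each group, this is at least 10.2-fold lower in topsoil libraries against a floor of 3 counts over the group. Such bounds cover counting error only and not the spread between pigs. Of these 45, 22 were in control replicate 3, and without it the bound was 5.76-fold. miR-184 had 0 counts in topsoil libraries and 34 over 4 control libraries, at least 7.72-fold lower by the same floor, or 4.57-fold without control replicate 6, which had 16 of the 34. The control libraries with reads of miR-184 were replicates 4, 5, 6 and 7, and those with reads of miR-664-3p were replicates 3, 4, 5 and 6. miR-29b had 4 and 5 counts in topsoil replicates 4 and 5 and none elsewhere, at least 4.41-fold higher in the pooled topsoil counts, or 2.97-fold without topsoil replicate 5. Those 2 libraries are among the 5 with the most miRNAs read. With the number of miRNAs read as a covariate, chosen after seeing the data, the unadjusted edgeR p of miR-29b was 0.0131, against 0.0155. With reads in only 2 libraries, that fit cannot tell the treatment from the number of miRNAs read. For miR-424-3p, 52 of the 53 counts came from control replicate 6, and topsoil libraries had none. The bound of at least 12.03-fold lower rests on that library, since the 1 count left without it is under the floor and gives no bound. The adjusted p was 0.591 for miR-664-3p and miR-184, and 0.638 for miR-29b and miR-424-3p.

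The remaining families were described by their counts, beside 116 higher and 93 lower with a median of 0.045 over all 209. That majority turned to 86 higher and 123 lower without miR-486 in the library sizes, where the median over all 209 moved by -0.14. For miR-23, miR-27 and miR-24, 6 of 6 tested members had a higher and 0 a lower fitted level (median 0.28). That count was 5 and 1 with TMM or median-of-ratios scaling, 3 and 3 without miR-486 in the library sizes, and 2 and 4, with a median of -0.062, with total counts. miR-27b-3p led that family at 761, 2206, 3773, 879.5 and 828 CPM in the topsoil libraries, against a control range of 558 to 5264 CPM with a median of 744 CPM. Control replicate 5 was the highest library, ahead of topsoil replicates 3 and 2. For the miR-30 family, 6 of 9 tested members had a higher and 3 a lower fitted level (median 0.17). TMM, median-of-ratios, total counts and miR-486-free library sizes each gave 5 and 4. In the list of the miR-15 and miR-16 family, 3 of 4 tested members had a higher and 1 a lower fitted level (median 0.15). The higher members were miR-15a, miR-15b and miR-16, which act on BCL2 and cyclins. The lower member was miR-424-3p, with 52 of its 53 counts in control replicate 6. Without miR-486 in the library sizes the count was 2 and 2. For miR-26 and miR-29, 4 of 6 tested members had a higher and 2 a lower fitted level (median 0.11), 3 and 3 under each of the other scalings, with a median of -0.059 without miR-486 in the library sizes. For miR-221 and miR-222, 2 of 3 tested members had a higher and 1 a lower fitted level (median 0.19), and there too the sign turned, to -0.056. Of miR-183, miR-96 and miR-182, 1 of 2 tested members had a higher and 1 a lower fitted level (median 0.23), which became -0.093 with total counts and -0.017 without miR-486.

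For the housekeeping miRNAs (miR-191, miR-425, miR-423, miR-103 and miR-107), 3 of 7 tested members had a higher and 4 a lower fitted level (median -0.047), 2 and 5 under TMM, median-of-ratios and miR-486-free scaling, and 5 of the 7 intervals lay within 1 of 0. For the vascular and platelet list, 1 of 5 tested members had a higher and 4 a lower fitted level (median -1.37). Its 4 lower members had a mean of fewer than 100 counts, and the 3p arms of miR-199a and miR-199b have the same counts, so that they are 1 measurement. miR-143-3p, which had most of that list's counts, had a difference of 0.50 (95% interval -0.55 to 1.56), and of -0.033 without topsoil replicate 3. For the tissue-restricted list, 4 of 4 tested members had a higher and 0 a lower fitted level (median 0.13). TMM, median-of-ratios and total counts made that 3 higher and 1 lower, and leaving miR-486 out of the library sizes made it 1 higher and 3 lower with a median of -0.038. For the erythroid list, 2 of 3 tested members had a higher and 1 a lower fitted level (median 0.38), and for the lymphocyte list 0 were higher and 2 lower with a median of -0.35. The 21 miRNAs that the study lists for its interaction of treatment with age were chosen on these same samples and are not independent evidence. Their median difference at day 11 was 0.027, with 11 higher and 10 lower and none at an unadjusted p under 0.05, and their median was negative under TMM (-0.0096), median-of-ratios (-0.089), total counts (-0.13) and miR-486-free library sizes (-0.10).

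The base composition of the mature sequence was examined after the values had been seen. Of 158 miRNAs with a mean of at least 10 counts, 140 have a RefSeq sequence. Across these 140 miRNAs, which share their libraries and are not independent replicates, the day 11 difference had a Pearson correlation of -0.29 and a Spearman correlation of -0.30 with the percentage of G and C. The 52 with the lowest G and C content (27.3% to 43.5%) had 35 higher and 17 lower fitted levels with a median of 0.18, the 45 of middle content (45.5% to 52.2%) had 28 higher and 17 lower with a median of 0.11, and the 43 with the highest (52.4% to 77.3%) had 18 higher and 25 lower with a median of -0.047. For scale, miR-101 has 33.3%, let-7f-5p 31.8%, miR-1306-5p 63.6% and miR-1343 77.3% G and C. Within libraries, the slope of the log2 level on G and C content, relative to the mean of the 13 libraries, ran from -0.31 in control replicate 6 to 0.47 in control replicate 1 per 10 points of G and C. The topsoil slopes were -0.12, 0.14, -0.11, -0.17 and -0.15, all inside the control range. With 1 library left out at a time the Pearson correlation ran from -0.32 without control replicate 8 to -0.17 without control replicate 1. With total-count scaling it was -0.41, with litter size as a covariate it was -0.019, and with all 4 covariates it was 0.068. At the later days the Pearson correlation of the same miRNAs was -0.038 at day 20 and -0.038 at day 56.

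**Figure D4:**
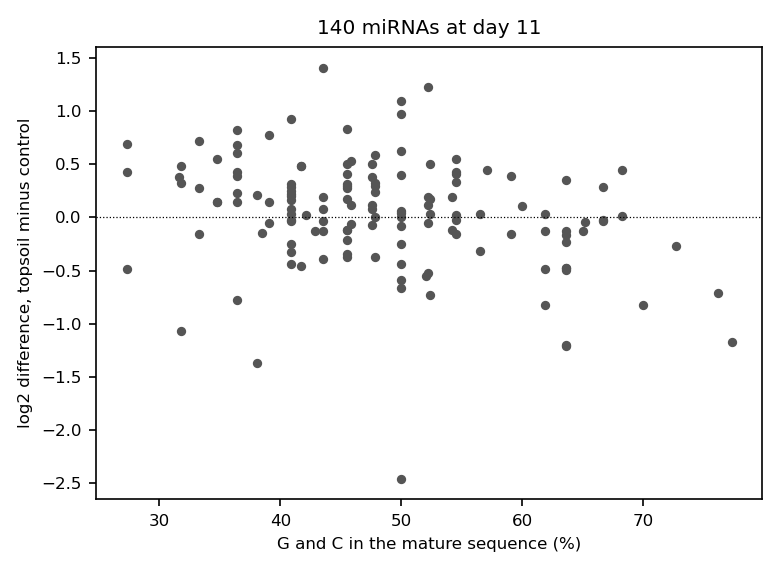
Fitted log2 difference at day 11 (topsoil minus control) against the percentage of G and C in the mature sequence, 1 point for each of 140 miRNAs with a mean of at least 10 counts and a RefSeq sequence. Points at the left lie mostly above 0 and those beyond 60% mostly below, with a Pearson correlation of -0.29 across miRNAs.

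Profiles were compared library by library. The Spearman correlation between 2 libraries over the 158 miRNAs with a mean of at least 10 counts had a median of 0.924 between control libraries, 0.931 between topsoil libraries and 0.926 across treatments. The most similar library was a control library for 4 of the 5 topsoil libraries, each with 8 controls among its 12 possible neighbours, and for 4 of the 8 control libraries, each with 7 among 12. Control replicates 5 and 7 and topsoil replicates 4 and 5, all among the 5 libraries with at least 212 miRNAs read, had correlations of 0.970 to 0.972 with their most similar library.

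The day 11 difference was tested against the mean of the differences at days 20 and 56 over all 39 libraries, with pig as a block. In edgeR 0 of 209 miRNAs were called (0%), the smallest adjusted p was 0.929, and 8 had an unadjusted p under 0.05. With 1 library left out at a time that count ran from 1 to 16, with 1 without topsoil replicate 4, 4 without topsoil replicate 5, 5 without topsoil replicate 1, 13 without control replicate 5 and 16 without topsoil replicate 2. No miRNA at day 11 can therefore be called unlike the later days at the threshold used. The 4 of these 8 with a mean of at least 10 counts were miR-26b-5p, miR-19b, miR-340 and miR-99b, and miR-26b-5p is named here only because of these values. The contrast comes from the fit with pig as a block and the differences by day from a separate fit to each day, so that the latter do not add up to the former. For miR-19b the contrast was 1.05 (95% interval 0.17 to 1.92), from 0.77 at day 11, -0.62 at day 20 and -0.0072 at day 56. For miR-340 it was 1.12 (95% interval 0.10 to 2.13), from 0.73 at day 11, -0.30 at day 20 and -0.34 at day 56. miR-26b-5p gave 0.74 (95% interval 0.14 to 1.35), with 0.37 at day 11, -0.59 at day 20 and -0.14 at day 56. miR-99b ran the other way, with a contrast of -1.63 (95% interval -3.25 to -0.0075) and differences of -1.20 at day 11, 0.84 at day 20 and -0.56 at day 56. The other 4 were the sparse miR-184, miR-29b, miR-7144-5p and miR-664-3p, and miR-7144-5p was likewise named after its values were seen.

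With 5 topsoil and 8 control pigs, the interval of the difference reached past 1 on the log2 scale for all but 44 of the 209 miRNAs. Counts are PCR reads without molecular identifiers, so intervals on shares and floors cover counting error only.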

How the data were processed

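Small RNA of PBMCs was sequenced, and the authors deposited miRDeep2 counts for each pair of mature and precursor miRNA, unscaled and unfiltered. Each mature name is represented by its entry of largest total. Members and lists were chosen with earlier results of these data known. Groups and days came from the column names. miRNAs read in 17 or more of the 39 libraries, and averaging above 2 reads, were tested with edgeR 4.0.16 in R 4.3.3 (quasi-likelihood F test, robust, upper-quartile scaling at 75%, Benjamini-Hochberg over all tested, threshold 0.10). For the later days, pig was a block, since each pig was sampled at 3 ages. Library measures were tested by exact permutation in Python 3.11.15 (scipy 1.17.1). Fits were also run on simulated data, and no value from those runs is given here.

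Named were the miRNAs past the threshold, the 8 with the smallest p in each direction averaging at least 10 counts, the 8 most abundant, the most abundant and the smallest p of each list, and the erythroid list. Alternatives were other scalings, DESeq2 1.42.0, limma 3.58.1 (voom), filters, covariates, all 39 libraries, every entry, the groups of the sample characteristics, a replicate block, and leaving out each library. RNA quality, sex, parity and litter size came from the study's supplementary table of libraries and served only as covariates. Some alternatives were chosen after seeing the data: the number of miRNAs read as a covariate, and shares of the counts other than miR-486. The mRNA table was not analysed, and 0 columns of the miRNA table were unused.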

Additional observations from a re-analysis of the deposited data

Results flagged for a closer look

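In 18 of 112 groups searched, 1 library stood apart from the rest of its treatment, its gap to the nearest other library exceeding Dixon's critical share of the group's range. For independent and normally distributed values, chance gives about 1 in 20 groups, or 5.6 of 112. Some groups hold zeros or few counts, and some measures overlap, such as the shares of miR-486 and of the erythroid list. The 5.6 is therefore not a valid comparison for the 18. No explanation was tested for any of them.

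Control replicate 4 had the lowest share of miR-486 (69.1%, next 84.6%), the lowest share of the erythroid list (69.2%, next 84.7%) and the highest upper-quartile factor (2.46, next 0.891) of the 8 control libraries. Control replicate 1 was the highest for miR-130b-5p (75.1 CPM, next 30.1) and for miR-181a (77451 CPM, next 44702). Control replicate 6 was the highest for miR-10b (71.7 CPM, next 42.6), miR-184 (2.74 CPM, from 16 counts) and miR-424-3p (8.90 CPM, from 52 counts). The highest level of miR-27b-3p was that of control replicate 5 (5264 CPM, next 932), and that of miR-30b-3p was in control replicate 2 (6.12 CPM, from 19 counts). Control replicate 4 was the highest control library for miR-375 (0.698 CPM, from 12 counts).

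Among topsoil libraries, replicate 3 was the highest for let-7a (36933 CPM, next 20791), miR-222 (217 CPM, next 103), miR-375 (14.4 CPM, from 57 counts) and miR-92b-3p (1725 CPM, next 1173). Topsoil replicate 4 was the highest for miR-451 (1571 CPM, next 503) and miR-185 (2.31 CPM, from 22 counts). Topsoil replicate 5 alone had reads of miR-30b-3p among topsoil libraries (0.312 CPM, from 4 counts).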

How the results depend on the processing

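No miRNA passed an adjusted p of 0.10 under any of the 29 alternatives (edgeR throughout, except DESeq2 and limma voom), which include leaving out each of 13 libraries. Of 48 miRNAs followed (the 46 named by rule, with miR-184 and miR-664-3p), 10 kept the sign of their difference under every alternative that gave them a value, and 26 under every such one that kept the groups of the column names. The filter at a mean of 10 counts gave values for 41 of the 48. Where a sign or a count changed, the cause was not tested. The number of miRNAs at an unadjusted p under 0.05 was 23 with no filter, 3 with a filter at a mean of 10 counts, 11 with all 39 libraries in the fit and 12 with every entry of the table, against 6, and 6 to 11 with 1 library left out (10 without control replicate 5, 11 without topsoil replicate 2 and 11 without topsoil replicate 4). DESeq2 gave 7 and limma voom 5. Against the later days 0 were called under each alternative, and at an unadjusted p under 0.05 there were 3 under scaling on total counts, against 8, and 1 to 16 with 1 library left out (1 without topsoil replicate 4, 4 without topsoil replicate 5, 5 without topsoil replicate 1, 13 without control replicate 5 and 16 without topsoil replicate 2). The median log2 difference of all miRNAs moved from 0.045 to -0.10 with library sizes without miR-486, -0.091 with testing without a filter, -0.19 with all 4 covariates and -0.11 with the treatment and age of the sample characteristics. The correlation of the differences with G and C content changed sign to 0.068 with all 4 covariates and 0.082 with the treatment and age of the sample characteristics.

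TMM scaling changed the sign of the log2 difference, to -0.033 for miR-26a and -0.030 for miR-30d. Scaling on total counts changed the sign of the log2 difference, to -0.23 for miR-26a, -0.072 for miR-27b-3p, -0.10 for miR-30d and 0.036 for miR-92a. Median-of-ratios scaling changed the sign of the log2 difference, to -0.030 for miR-26a and -0.054 for miR-30d. Library sizes without miR-486 changed the sign of the log2 difference, to -0.060 for let-7i-5p, -0.059 for miR-192, -0.056 for miR-222, -0.18 for miR-26a and -0.15 for miR-30d. DESeq2 changed the sign of the log2 difference, to -0.030 for miR-26a and -0.054 for miR-30d. limma voom changed the sign of the log2 difference, to -0.022 for miR-10b, 0.0077 for miR-181a, -0.0073 for miR-30d and 0.046 for miR-92a. Testing without a filter changed the sign of the log2 difference, to -0.057 for let-7i-5p, -0.032 for miR-192, -0.094 for miR-26a and -0.13 for miR-30d. A filter at a mean of 10 counts changed the sign of the log2 difference, to -0.054 for let-7i-5p, -0.025 for miR-192, -0.075 for miR-26a and -0.11 for miR-30d. RNA quality as a covariate changed the sign of the log2 difference, to 0.050 for miR-10a-5p, -0.16 for miR-26a, -0.059 for miR-30d, 0.16 for miR-486 and 0.012 for miR-92a. Litter size as a covariate changed the sign of the log2 difference, to -0.036 for let-7a, -0.019 for let-7i-5p, -0.10 for miR-142-5p, -0.37 for miR-144, -0.12 for miR-16, 0.21 for miR-181a, 0.048 for miR-191, -0.32 for miR-192 and 0.024 for miR-92a. All 4 covariates changed the sign of the log2 difference, to -0.25 for let-7a, -0.30 for let-7f-5p, 0.42 for miR-10a-5p, -0.51 for miR-142-5p, -0.85 for miR-144, 0.17 for miR-150, -0.47 for miR-16, 0.30 for miR-181a, 0.16 for miR-191, -0.73 for miR-192, -0.18 for miR-222, -0.69 for miR-27b-3p, -0.31 for miR-30d, -0.18 for miR-451, 0.19 for miR-486, 0.26 for miR-92a and 0.0098 for miR-92b-3p. Every entry of the table changed the sign of the log2 difference, to 0.12 for miR-22-3p and 0.079 for miR-92a. The treatment and age of the sample characteristics changed the sign of the log2 difference, to -0.20 for let-7i-5p, 0.29 for miR-10a-5p, 0.65 for miR-1306-5p, 0.14 for miR-1343, -0.31 for miR-142-3p, -0.29 for miR-142-5p, -0.32 for miR-143-3p, -0.87 for miR-144, 0.39 for miR-150, -0.61 for miR-16, 0.64 for miR-181d-5p, -0.94 for miR-192, 1.48 for miR-199a-3p, -0.49 for miR-19b, -0.40 for miR-26a, -0.94 for miR-27b-3p, 1.39 for miR-30b-3p, -0.20 for miR-30d, -0.17 for miR-340, 0.36 for miR-342, -0.55 for miR-375, 2.62 for miR-424-3p, -1.33 for miR-451, 0.51 for miR-486, -0.30 for miR-532-5p, 0.47 for miR-6529, 3.03 for miR-664-3p, 0.57 for miR-9841-3p and 0.84 for miR-99b. The replicate number as a block changed the sign of the log2 difference, to -0.0019 for miR-222, -0.16 for miR-26a, -0.078 for miR-30d, 0.13 for miR-486 and 0.057 for miR-92a. The number of miRNAs read as a covariate, chosen after seeing the data, changed the sign of the log2 difference, to 0.051 for miR-181a, 0.024 for miR-191, -0.018 for miR-30d and 0.00089 for miR-486. Topsoil minus control turned, with shares of the counts other than miR-486, chosen after seeing the data, to -0.00358 for the share of tissue-restricted list. For the erythroid list it was 0.0996. There miR-486 is left out of the list too, so that value covers miR-451 and miR-144 only and is another quantity.

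With 1 library left out at a time, the log2 difference ran over these ranges, which cross 0: let-7a -0.0086 to 0.36, let-7i-5p -0.085 to 0.13, miR-10a-5p -0.65 to 0.053, miR-143-3p -0.033 to 0.79, miR-144 -0.047 to 0.72, miR-150 -0.39 to 0.049, miR-16 -0.087 to 0.52, miR-181a -0.25 to 0.17, miR-191 -0.24 to 0.092, miR-192 -0.11 to 0.37, miR-22-3p -0.35 to 0.12, miR-222 -0.21 to 0.35, miR-26a -0.22 to 0.21, miR-27b-3p -0.15 to 1.21, miR-30d -0.15 to 0.21, miR-486 -0.50 to 0.063 and miR-92a -0.10 to 0.092. Topsoil minus control crossed 0 in the same way for the share of vascular and platelet list (-0.000807 to 0.000922), the share of tissue-restricted list (-0.00308 to 0.00527), the upper-quartile factor (-0.223 to 0.202), the share of lymphocyte list (-0.0580 to 0.0142), the miRNAs with a read (-2.88 to 15.1), the share of miR-486 (-4.28 to 1.25), the share of erythroid list (-4.25 to 1.27) and the share of leukocyte and myeloid list (-0.00756 to 0.0307).

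Pigs of the 2 treatments with the same replicate number share only that number. Their profiles, each relative to the mean of its treatment, had correlations of -0.041, 0.17, 0.084, 0.15 and 0.28, and the best partner was the own number in 1 of 5. With the replicate number as a block, 0 miRNAs were called and 8 had an unadjusted p under 0.05.

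Depth limits the sparse miRNAs: the miRNAs at 0 in a whole group are known only as bounds from 3 counts over the group, and below a mean of 100 counts no interval lay within 1 of 0.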
